A study of Mus musculus with 6 samples.

Results

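The genes described here are the 4 teneurins, *Tenm1*, *Tenm2*, *Tenm3* and *Tenm4*, with the 2 families of membrane proteins that bind them or bind their receptors: the 3 latrophilins, *Adgrl1*, *Adgrl2* and *Adgrl3*, and the 3 FLRTs, *Flrt1*, *Flrt2* and *Flrt3*. They were found by gene symbol and are 10 of the 19831 genes in the table. They were chosen by a result of this same comparison, the low *Tenm2* value in Npffr1-KO tissue, so the values below are a description and no test between the genotypes was run. RNA was sequenced from the inguinal adipose tissue (iAT) of mice at postnatal day 6. The iAT is a subcutaneous white fat depot. The samples were 3 wild-type and 3 Npffr1-KO, the latter lacking neuropeptide FF receptor-1, a G protein-coupled receptor. Neither group was labelled as treated, and strain, sex, the promoter or exon targeted in the knockout, and whether each sample was a separate animal were not given in the labels.

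Teneurins are large single-pass transmembrane proteins whose extracellular part ends in a barrel of repeats, and they act as dimers in cell adhesion and in the wiring of neurons. Latrophilins are adhesion G protein-coupled receptors. Their extracellular end binds the teneurin barrel on a neighbouring cell, and it also binds FLRTs, which are leucine-rich repeat proteins that bind Unc5 guidance receptors and FGF receptors as well. These proteins are known mainly from the brain, where they guide axons and place synapses, while *Flrt2* and *Flrt3* are also known from embryonic tissues.

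The 4 teneurins are close relatives, so it was first asked whether a read of one could be taken for another. Part of their coding sequence is printed to show how far they differ, since the comparison rests on telling *Tenm2* and *Tenm3* from *Tenm4*, which is far more abundant. The window is 90 bases of the last coding exon, within the conserved C-terminal part of the protein, read 5′ to 3′ from GRCm38 with the GENCODE annotation. It was placed around the longest stretch that *Tenm2* and *Tenm3* share without a mismatch, so it need not be typical of the coding sequence. Capitals mark the 49 bases that are the same in all 4 genes. It lies at chrX:42532887-42532976 on the minus strand in *Tenm1*, at chr11:36008466-36008555 on the minus strand in *Tenm2*, at chr8:48228868-48228957 on the minus strand in *Tenm3* and at chr7:96906080-96906169 on the plus strand in *Tenm4*.
Tenm1: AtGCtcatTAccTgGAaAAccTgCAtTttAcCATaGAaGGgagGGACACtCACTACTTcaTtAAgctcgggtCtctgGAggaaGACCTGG
Tenm2: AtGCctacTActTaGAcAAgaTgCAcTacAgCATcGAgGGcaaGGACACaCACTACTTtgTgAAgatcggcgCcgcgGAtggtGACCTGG
Tenm3: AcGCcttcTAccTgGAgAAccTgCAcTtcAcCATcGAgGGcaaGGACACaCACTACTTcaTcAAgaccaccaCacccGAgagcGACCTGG
Tenm4: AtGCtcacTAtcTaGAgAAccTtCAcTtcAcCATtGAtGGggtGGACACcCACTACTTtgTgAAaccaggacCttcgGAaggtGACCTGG
In this window *Tenm3* had the same base as *Tenm2* at 75.6% of positions, *Tenm4* at 72.2% and *Tenm1* at 67.8%. All differences between *Tenm2* and *Tenm3* lie on either side of the 27 bases in its middle, which are the same in both. Over the whole coding sequence the longest stretch that *Tenm2* shared without a mismatch was 29 bases with *Tenm4* and 27 bases with *Tenm3*. No sequence of 31 bases from the *Tenm2* transcripts was found in a transcript of another gene, and for *Tenm3* the share was 0.826%, all of it in *Gm19744*, a noncoding gene on the opposite strand. *Tenm1* shared 8.44% of its 31-base sequences with other genes, *Tenm4* among them, and *Tenm4* shared 4.41%. Among the receptors the share was 12.2% for *Adgrl1*, partly with *Adgrl2*, 9.13% for *Adgrl3* and 1.29% for *Adgrl2*. For the FLRTs it was 0.257% or less. Genes on the opposite strand overlap exons of *Tenm1*, *Tenm3*, *Tenm4* and all 3 latrophilins, and whether the counting used strand is not given in the sources used here.

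*Tenm4* was the most abundant of the 10 genes in iAT. The table gives 1 value per genotype in normalized counts, and levels of different genes are set side by side here only after division by transcript length. Per kb of transcript, the wild-type level of *Tenm4* was 385 normalized counts, above 75.8% of all listed genes. *Adgrl2* followed at 308 and *Adgrl1* at 295. In Npffr1-KO tissue they stood in the opposite order, at 267 and 272. *Flrt3* came next at 82.9 in wild-type tissue, then *Flrt2* at 60.6 and *Tenm3* at 56.4, whose order turned when the longest annotated transcript was used for the length. *Adgrl3* stood at 15.3, *Tenm2* at 5.33, *Flrt1* at 1.36 and *Tenm1* at 0.0804. The table has no error for these levels.

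**Figure D1:**
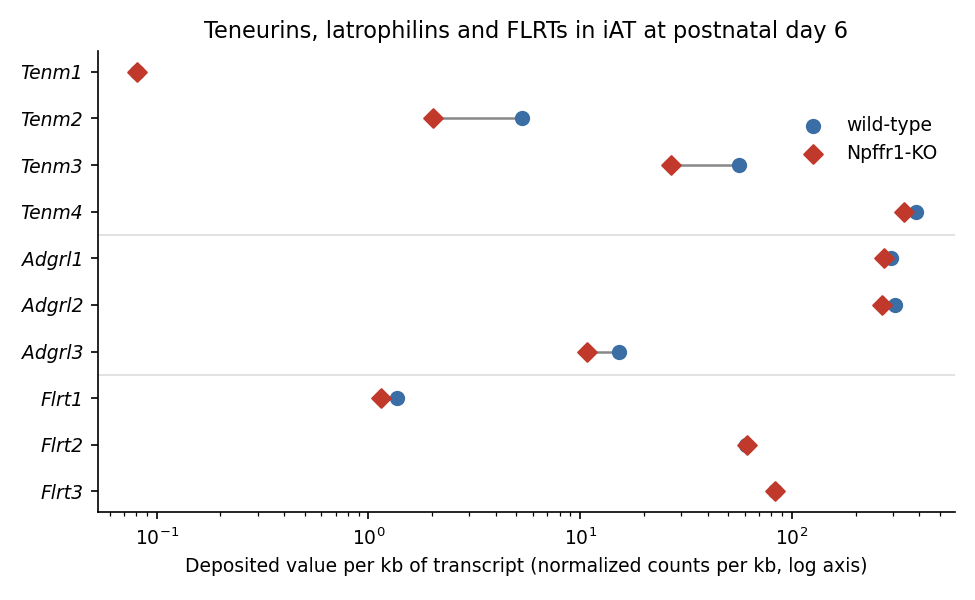
Level of the 10 genes in wild-type (blue circles) and Npffr1-KO (red diamonds) iAT, as the deposited value per kb of transcript on a log axis, 1 value per genotype with no error bar. *Tenm2* and *Tenm3* show the widest gaps between the genotypes, 5.33 against 2.03 and 56.4 against 26.9, and the symbols of *Tenm1*, *Flrt2* and *Flrt3* lie on each other.

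Each family was therefore carried by 1 or 2 of its members. *Tenm4* made up 86.1% of the summed teneurin level per kb in wild-type tissue, *Tenm3* 12.6% and *Tenm2* 1.2%. In Npffr1-KO tissue the shares were 92.1%, 7.34% and 0.554%. The latrophilin level was divided almost equally between *Adgrl2*, with 49.7%, and *Adgrl1*, with 47.8%, and *Adgrl3* held 2.47%. *Flrt3* held 57.2% of the FLRT level and *Flrt2* 41.8%. The summed level per kb was 446 normalized counts for the teneurins in wild-type and 366 in Npffr1-KO tissue, 618 and 549 for the latrophilins, and 145 and 146 for the FLRTs.

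*Tenm2* was the member with the lowest ratio between the genotypes. Its reads in each library could be worked out from the mean of its deposited values, which is possible only for genes with few reads. The libraries of a genotype are called a, b and c here, in the order of their size factors, since they could not be tied to sample numbers. Wild-type libraries a, b and c held 33, 79 and 56 *Tenm2* reads and Npffr1-KO libraries a, b and c held 24, 10 and 14. After division by the size factors these were 31.9, 77.3 and 55.6 normalized counts in the wild-type and 23.1, 10.1 and 15.3 in Npffr1-KO tissue. The groups did not overlap, and the gap between the lowest wild-type library and the highest Npffr1-KO library was 8.74 normalized counts. The means were 54.9 ± 22.7 (SD, n = 3) in wild-type and 16.2 ± 6.56 (SD, n = 3) in Npffr1-KO tissue, a log2 ratio of -1.76. The SD covers the spread between these libraries, which may be technical. Relative to its mean, the *Tenm2* SD was 41.4% in wild-type and 40.6% in Npffr1-KO libraries, wider than the median of 22.9% and 27.5% over 1091 genes of like abundance.

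The deposited *Tenm2* values were 51.5 normalized counts in the wild-type and 19.6 in Npffr1-KO tissue, a log2 ratio of -1.40. This is closer to 0 than the ratio of the library means. The deposited values are not plain library means, and how they were made is not given in the sources used here. The distance between deposited ratio and ratio of library means differed between genes. For *Shank1* these were -0.34 and -0.45, and for *Ckm*, a muscle gene high in a single library, 0.75 and 4.97. Places in the order of the ratio and shares of genes past 1.5-fold therefore hold only for the deposited values. All other ratios below are log2 ratios of the deposited Npffr1-KO value over the wild-type value unless they are named as library means. Mean normalized counts of 10 or more were reached by 15309 genes, and 4 of them had a lower ratio than *Tenm2*. The 3 nearest below it were *Foxd1* at -1.96, a forkhead transcription factor, *Slc9a9* at -2.06, an endosomal sodium-proton exchanger, and *1700112E06Rik* at -2.46. The 3 nearest above it were *Unc93a* and *Acr*, both at -1.34, and *Gm3488* at -1.32. With 9656 bases *Tenm2* has a far longer transcript than any of the 6, which range from 911 to 3492 bases.

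**Figure D2:**
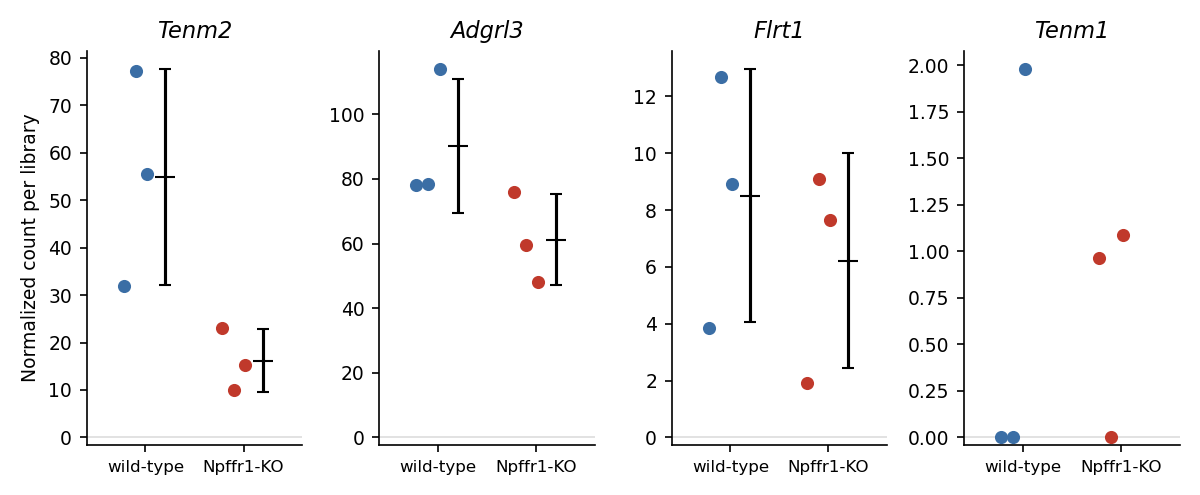
Normalized counts in each library for the 4 genes whose reads per library were found, with wild-type libraries in blue and Npffr1-KO libraries in red (1 point per library, n = 3), and bars for mean and SD except for *Tenm1*, which had 2 reads in each genotype. The vertical scales differ. The genotypes do not overlap for *Tenm2* and *Adgrl3* and overlap for *Flrt1* and *Tenm1*.

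*Tenm3* was the other teneurin with a value at least 1.5-fold lower in Npffr1-KO tissue. It stood at 618 normalized counts in the wild-type and 294 in Npffr1-KO tissue, a log2 ratio of -1.07, so that the Npffr1-KO value was 47.6% of the wild-type one. It had a higher count than *Tenm2*, and 8605 genes had a mean at or above that of *Tenm3*. Only 1 other of these 8605 genes had a ratio as low. The reads of each library were not determined for *Tenm3*, whose counts lie above the range in which whole reads could be found, so its spread between libraries is unknown. *Tenm4* was at 5076 and 4449 normalized counts, a log2 ratio of -0.19. *Tenm1* was close to the detection limit, with 0, 0 and 2 reads in wild-type and 1, 0 and 1 in Npffr1-KO libraries, and no ratio is given for it.

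Among the latrophilins the least abundant one had the lowest ratio. *Adgrl3*, which binds both teneurins and FLRT3, held 78.2, 78.3 and 114 normalized counts in wild-type libraries and 76.1, 59.5 and 48 in Npffr1-KO libraries. The groups did not overlap, but the gap was only 2.09 normalized counts, between Npffr1-KO library a and wild-type library a. The means were 90.2 ± 20.7 (SD, n = 3) and 61.2 ± 14.1 (SD, n = 3), a log2 ratio of library means of -0.56. The deposited values, 88.8 and 62.6, gave -0.50. *Adgrl1* was at 2422 and 2232 normalized counts, a log2 ratio of -0.12. *Adgrl2* was at 1861 and 1614, a log2 ratio of -0.21. No spread between libraries could be given for *Adgrl1* and *Adgrl2*.

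The abundant FLRTs had nearly the same value in both genotypes. *Flrt2*, known for binding *Unc5d* and latrophilins, was at 430 and 437 normalized counts, a log2 ratio of 0.02. *Flrt3* was at 330 and 332, a log2 ratio of 0.01. *Flrt1* was scarce, with 4, 13 and 9 reads in wild-type and 2, 9 and 7 in Npffr1-KO libraries. These groups overlapped, with means of 8.51 ± 4.45 (SD, n = 3) and 6.22 ± 3.78 (SD, n = 3) normalized counts.

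At a mean normalized count of 10 or more, 2 of 8 members were at least 1.5-fold lower in Npffr1-KO tissue, *Tenm2* and *Tenm3*, against 3.12% of the 15309 genes at that mean. None was at least 1.5-fold higher, against 2.78% of those genes. *Tenm1* and *Flrt1* lie under that mean. The rule that chose the members used this contrast, so nothing is read from these counts. The median log2 ratio of the 8 members was -0.20, beside 0.01 for all genes, and -0.19 without *Tenm2*. All 3 Npffr1-KO libraries lay below all wild-type libraries for both members with known reads and a mean of 10 to 80 normalized counts, *Tenm2* and *Adgrl3*, and so did 10.7% of the 2745 such genes. The member closest to the 1.5-fold limit without reaching it was *Adgrl3*, at 1.42-fold, and the closest beyond it was *Tenm3*, at 2.1-fold.

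The members are long genes, and in these data long transcripts had lower ratios than short ones. The median log2 ratio was 0.27 in the shortest of 20 length classes and -0.15 in the longest, the class of *Tenm2*, *Tenm3*, *Tenm4* and *Adgrl1*. Relative to the median of its own class, *Tenm2* stood at -1.25, *Tenm3* at -0.93 and *Adgrl3* at -0.40. *Tenm4* was at -0.04, *Adgrl2* at -0.08 and *Adgrl1* at 0.03, and *Flrt3* and *Flrt2* were at 0.07 and 0.15. The median over the 8 members moved from -0.20 to -0.06. Of the 286 genes with a transcript at least as long as that of *Tenm2*, 12 (4.2%) were at least 1.5-fold lower and none but *Tenm2* had a ratio of -1.40 or less.

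**Figure D3:**
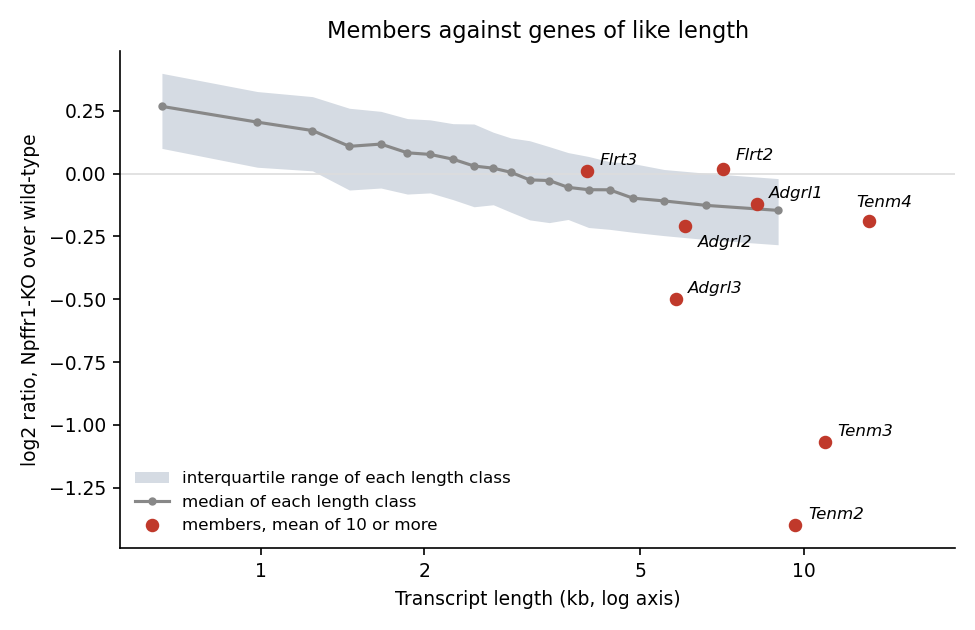
Log2 ratio of the deposited Npffr1-KO value over the wild-type value against transcript length on a log axis, with the median (grey line) and the interquartile range (band) of all genes with a mean count of 10 or more in 20 length classes, each class drawn at its median length. *Adgrl3* at -0.50 lies below the band, while *Adgrl1* and *Adgrl2* lie within it. The band ends at 8975 bases, so *Tenm2* at -1.40 and *Tenm3* at -1.07 lie to its right, below the lower quartile of their class, -0.28.

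Genomic span gave a similar picture. In GRCm38 *Tenm2* occupies 36006656 to 37235964 of chromosome 11, on the minus strand, which is 1229 kb and a longer span than 99.9% of genes. *Tenm3* spans 616.3 kb on chromosome 8, from 48227682 to 48843951, *Tenm1* 901.3 kb on the X chromosome, *Tenm4* 739.8 kb on chromosome 7 and *Adgrl3* 805 kb on chromosome 5. Among the 92 genes that span at least 600 kb and have a mean count of 10 or more, *Tenm2*, *Tenm3*, *Tenm4* and *Adgrl3* included, the median log2 ratio was -0.26 and 14 genes (15.2%) were at least 1.5-fold lower. The members with the shortest spans among those at that mean were *Adgrl1*, with 41.85 kb, *Flrt2*, with 92.99 kb, and *Flrt3*, with 20.56 kb. Even so, *Adgrl1* and *Flrt2* span more than 70.6% and 86.3% of genes. Their ratios were the 3 highest of the 8 members. Relative to the median of genes of like span, an alternative chosen after seeing the data, *Tenm2* stood at -1.24, *Tenm3* at -0.92 and *Adgrl3* at -0.35. *Adgrl2* was at -0.10, *Adgrl1* at -0.09, *Tenm4* at -0.04, *Flrt3* at -0.03 and *Flrt2* at 0.11.

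The median ratios of the genes beside *Tenm2* and of those beside *Tenm3* on the chromosome were near 0. The 20 nearest genes with a mean count of 10 or more around *Tenm2*, 10 on each side, had a median log2 ratio of 0.09. Their ratios ran from -1.02 to 0.50. The closest on either side were *Wwc1*, at 22.3 and 23.6 normalized counts, and *Mat2b*, at 1285 and 1384. At least 1.5-fold lower were 2 of the 20, against 3.12% of the 15309 genes at that mean. These 2 are named here after their values were seen: *Gabrb2*, a GABA receptor subunit, at -0.76, and *Atp10b*, a lipid-transporting ATPase, at -1.02. Around *Tenm3* none of the 20 was 1.5-fold lower or higher, and the ratios ran from -0.51 to 0.28.

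A further list held other ligands of latrophilins, their scaffolds and a relative. Of 7 such genes described here, 4 had a mean normalized count of 10 or more, and all 4 were below the wild-type value, as were 7474 of all 15309 genes. Their median log2 ratio was -0.45, and -0.36 relative to genes of like length. Only *Shank3*, a scaffold protein that binds the tail of latrophilins, was at least 1.5-fold lower, against 3.12% of the 15309 genes. *Shank3* was at 6072 normalized counts in the wild-type and 3880 in Npffr1-KO tissue, a log2 ratio of -0.65. Relative to genes of like length it stood at -0.52, which is less than 1.5-fold. *Adgrl4*, a latrophilin relative of endothelial cells without a known teneurin ligand, was at 2664 and 1889, a ratio of -0.50. *Nrxn2*, a neurexin, was at 105 and 79.2, a ratio of -0.41. *Shank1* held 33.8, 43.1 and 36.7 normalized counts in the wild-type and 27.9, 45.4 and 9.82 in Npffr1-KO libraries, which overlapped. *Nrxn3*, *Cntn6* and *Shank2* were under the minimum.

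None of the 6 receptors that bind FLRTs with a mean count of 10 or more differed by 1.5-fold or more. Of the 15309 genes at that mean, 3.12% were that much lower and 2.78% that much higher, so none in so short a list says little. *Fgfr1*, the most abundant of them, was at 6711 normalized counts in the wild-type and 5154 in Npffr1-KO tissue, a log2 ratio of -0.38. *Unc5a*, a netrin receptor, was the one with a higher value, at 817 and 1038, a ratio of 0.35. *Unc5b* was at -0.28, *Fgfr2* at -0.22, *Robo1* at -0.09 and *Unc5c* at -0.05. *Unc5d*, a partner of FLRT2, had 19 reads in wild-type and 10 in Npffr1-KO libraries.

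Nor did any of 11 G protein alpha subunits and arrestins, through which adhesion receptors signal, differ by 1.5-fold. The shares over all genes, 3.12% lower and 2.78% higher, are small here too. Of the 11 genes, 7 were lower and 4 higher, with a median of -0.11. The lowest was *Gnai1* at -0.41, and the highest were *Gnao1* and *Arrb2*, both at 0.36. The 3 genes described here for proteins that process teneurins or bind them ran from -0.13 for *Mbd1*, a DNA-binding partner of a teneurin's intracellular part, to -0.07 for *Furin*, the protease that cuts teneurins in the secretory pathway. *Dag1*, dystroglycan, was at -0.11.

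**Figure D4:**
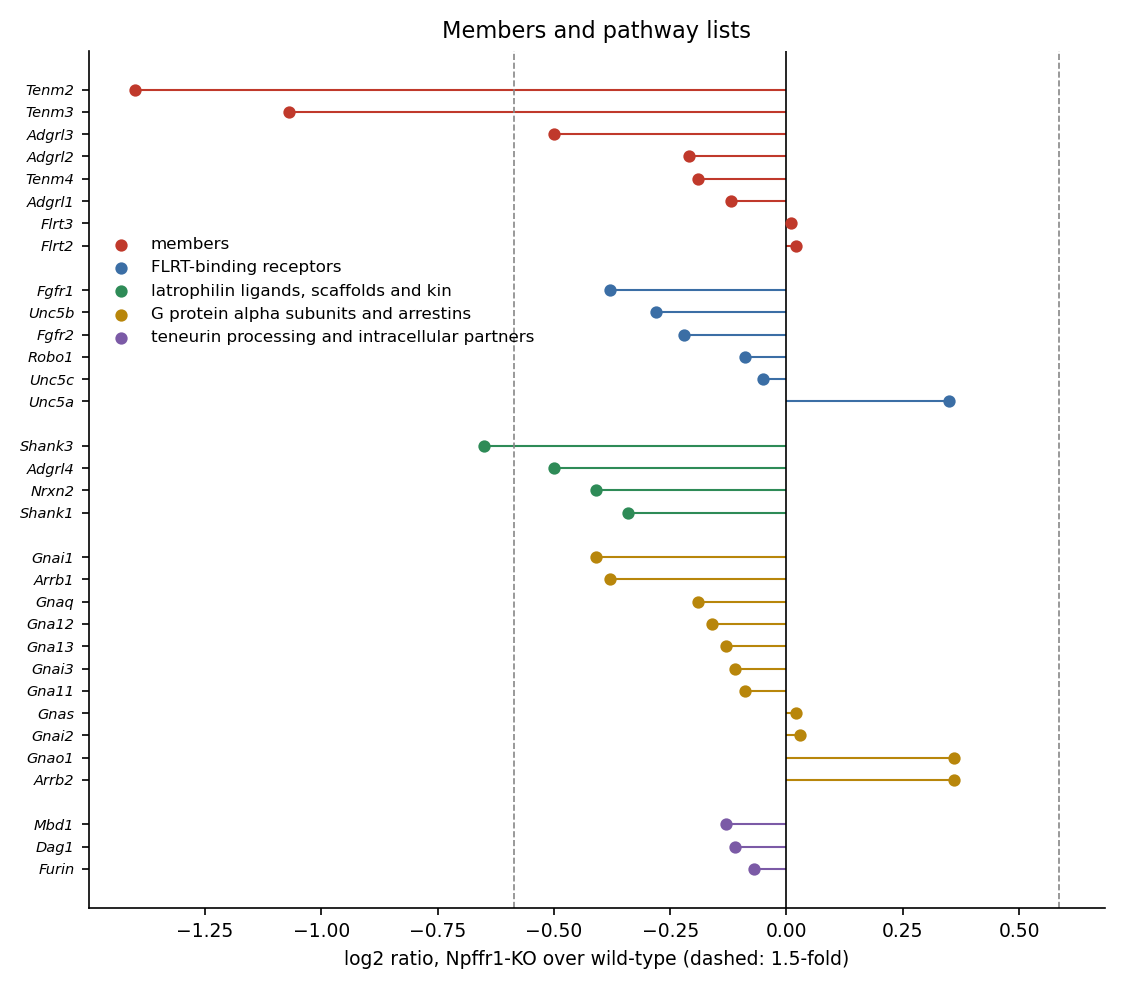
Log2 ratio of the deposited Npffr1-KO value over the wild-type value for the members and for 4 lists of pathway genes, all with a mean count of 10 or more, 1 point per gene with no error bar. Dashed lines mark 1.5-fold. *Tenm2*, *Tenm3* and *Shank3* lie beyond the lower line and no gene lies beyond the upper one.

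The tissue label was checked with marker genes. The adipocyte genes *Adipoq*, at 37027 and 35360 normalized counts, and *Fabp4*, at 156285 and 173188, were abundant in both genotypes, while the most abundant of 7 neuron markers, *Syp*, stood at 153 and 156. *Npffr1* itself had 1, 0 and 5 reads in the wild-type and none in the Npffr1-KO libraries, too few to check the labels sample by sample. Size factors ran from 0.9165 to 1.0377, so depth was alike, and the values of a genotype summed to 23137343 in wild-type and 23640005 in Npffr1-KO tissue. The 5 adipocyte markers summed to 225133 and 248158, with ratios from -0.07 for *Adipoq* to 1.05 for *Lep*, which encodes leptin, and the 7 neuron markers to 338 and 352. These marker sums and ratios are not corrected for transcript length. Relative to genes of like length, *Adipoq* stood at -0.24, *Fabp4* at -0.12, *Plin1* and *Cidec* at 0.06 and *Lep* at 1.07. The 6 neuron markers with a mean count of 10 or more ran from -0.53 for *Rbfox3* to 0.29 for *Elavl3*, 2 of them lower and 4 higher.

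Markers of other cell types stood at different levels in the genotypes. Of 5 Schwann cell markers 4 were lower, from *Mbp* at -0.44 to *Sox10* at -0.82, *S100b* was higher at 0.65, and the list summed to 35735 normalized counts in wild-type tissue and 26035 in the knockout. All 4 endothelial markers were lower, at -0.28 to -0.43 and sums of 51024 and 40211, as were all 5 mural cell markers, at -0.12 to -0.55 and sums of 44774 and 37580. The 5 adipose progenitor markers ran from -0.37 for *Pdgfra* to 0.15, with sums of 17286 and 15769. All 4 skeletal muscle markers with a mean count of 10 or more were higher, at 0.47 to 1.26, with sums of 353 and 698 for the list. Npffr1-KO library a held 207 normalized counts of *Ckm* against 6.55 or less in the other 5, while for *Mylpf* it held 0.964 against 32.7 to 182 in the other 5. The 4 lymphocyte markers were higher, at 0.08 to 0.74 and sums of 7724 and 10187. Of 4 macrophage markers 3 were higher, within a range of -0.07 to 0.48 and with sums of 15319 and 18290. Relative to genes of like length, the list medians were -0.56 for Schwann cells, -0.30 for endothelial and -0.15 for mural cells. They were -0.18 for adipose progenitors, 0.59 for skeletal muscle, 0.34 for lymphocytes and 0.24 for macrophages. The 3 keratinocyte markers summed to 87 and 81 and the 3 mammary epithelium markers to 56 and 61. Most of the keratinocyte sum was *Krt10*, at 79.4 and 72.4. *Krt5* had 11 reads in wild-type library c, 21 in Npffr1-KO library a and none in the others. *Krt14* had 6 and 11 reads in these libraries and 1 or none in the others. The part of all these cell types in the low *Tenm2*, *Tenm3*, *Adgrl3* and *Shank3* values was not tested. In a whole tissue, fewer cells of a type and less RNA per cell cannot be told apart. Without Npffr1-KO library a, the log2 ratio of library means was -2.11 for *Tenm2* and -0.75 for *Adgrl3*.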

How the data were processed

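Sequencing of iAT RNA at postnatal day 6 covered 3 wild-type samples and 3 of Npffr1-KO, grouped by genotype label. RNA was extracted with TRIzol. The submitters' processing notes name Bowtie2, RSEM and DESeq2, without versions. Their genome build and annotation: not given in the sources used here. The table the authors deposited holds, for 19831 genes, a signal in normalized counts, 1 value per genotype, and the transcript length. The authors' fold changes and p-values, and a shorter list of genes selected with them, were not used. Log2 ratios were computed from the 2 values.

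Genes with a single read gave the size factors of the 6 libraries, and the direction of these genes gave each library's genotype. All sets of whole reads, up to 250 per library, were tried on 7274 genes whose mean was 80 normalized counts at most. Exactly 1 set matched the mean of the deposited genotype values for 7267 of them (99.9%). Each genotype value by itself was not matched. Of 2182 genes with a mean of at least 10 and a log2 ratio over 0.1 in size, 2176 had the same direction in the whole reads. The search was first tested on simulated data. Per-library values cover counting and library differences, and depth limits *Tenm1* and *Flrt1* most. The other 6 members lie above the search limit.

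No test was run. The members, the pathway lists, the marker lists and the limit of 1.5-fold at a mean of at least 10 were chosen with earlier results of these data known. Named genes are the members, the genes of the lists, *Npffr1*, and the 3 genes on either side of *Tenm2* in the order of the ratio. Also named are *Gm19744*, which shares sequence with *Tenm3*, and the genes closest to *Tenm2* on the chromosome, *Wwc1* and *Mat2b*. *Gabrb2* and *Atp10b* were named after their values were seen. Of the pathway lists, 2 genes are not reported here and were left out of the counts and medians, 1 from the latrophilin ligand and scaffold list and 1 from the teneurin partner list. Positions, spans, shared 31-base sequences and coding sequence were taken from GENCODE M21 on GRCm38, which may differ from the authors' annotation. Alternatives were pseudocounts of 1 and 10, other folds and minimums, centring on all genes or on genes of like length in 20 classes, library means, leaving out each library, and, added after seeing the data, centring on genes of like genomic span. Python 3.11.15, numpy 2.4.6 and pandas 2.3.3 were used.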

Additional observations from a re-analysis of the deposited data

How the results depend on the processing

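The count of members at least 1.5-fold lower in Npffr1-KO tissue, 2, was also 2 at 2-fold, without a minimum and under each of the 3 centrings. It was 3 at the lower fold tried, where *Adgrl3* joins, and 1 with a minimum mean of 50, which removes *Tenm2*. The count of members at least 1.5-fold higher was 0 under every alternative. The median log2 ratio of the members, -0.20, was -0.06 when centred on genes of like length. Under the other alternatives it ran from -0.21 to -0.10, the latter when centred on genes of like genomic span, an alternative chosen after seeing the data. With *Tenm2* left out it was -0.19.

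The log2 ratio of library means of *Tenm2*, -1.76, ran from -2.11 to -1.44 when each library was left out in turn. The ends came without Npffr1-KO library a and without wild-type library b. It was -2.04 without wild-type library a. That of *Adgrl3*, -0.56, ran from -0.75 to -0.35, and that of *Flrt1*, -0.45, from -0.83 to -0.03, so the size of the *Flrt1* ratio rests on single libraries. *Shank3* was less than 1.5-fold lower when centred on genes of like length, at -0.52. No paired analysis was possible, since the labels give no pairing of samples. The libraries could not be tied to sample numbers, and no test was run. The table has no value per sample, so the spread of the 6 other members is unknown, and few reads limit *Tenm1* and *Flrt1*.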
